A study of Tursiops truncatus with 17 samples.

Results

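Of 17 bottlenose dolphin (Tursiops truncatus) cerebral cortex libraries, 3 from bloom seasons held more than 30% mitochondrial reads, and they are set here against the other 6 bloom season libraries. The 3 libraries, bloom replicates 5, 6 and 9, were chosen by a value measured in them: the share of all reads that fell on the mitochondrial genome. They are called the mitochondria-rich libraries below. Because the readout itself set them apart, their differences from the other bloom libraries are described without a p-value.

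All 17 samples were frozen cortex from archived necropsies of dolphins labelled WT, with no treatment other than the season label, and the source names give 1 dolphin per library. The groups were 9 libraries from bloom seasons and 8 from non-bloom seasons. The labels do not state the kind of bloom, the age or sex of the dolphins, or the time from death to freezing, so none of these can be set against the groups. The labels give 1 RNA integrity number for all samples together, a median of 9.1 (interval 8.9 to 9.5), and none per library.

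Mitochondria carry a small circular genome that encodes subunits of the respiratory chain complexes and the RNAs needed to make them. All other mitochondrial proteins, including the polymerase and the ribosomal proteins that express that genome, are encoded in the nucleus. In cortex, neurons use much of their mitochondrial output to restore ion gradients after synaptic and action potential currents, and astrocytes supply and clear transmitters around the synapse.

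The mitochondrial share was 57.0% in bloom 5, 33.5% in bloom 6 and 77.2% in bloom 9. In the other bloom libraries it ran from 1.47% in bloom 8 to 19.5% in bloom 7, with a median of 11.5%. Bloom 6 was the library just inside the threshold and bloom 7 the one just outside. The 8 non-bloom libraries lay between 9.68% and 22.1%. Reads outside the mitochondrial genome, called nuclear reads here, numbered 4040260, 6719850 and 1753799 in bloom 5, 6 and 9, against 9946029 to 11607555 in the other bloom libraries. All levels below are nuclear CPM, reads per 1000000 nuclear reads of a library, so that the mitochondrial reads do not enter them. A count of 3 reads stood for 0.743, 0.446 and 1.71 nuclear CPM in bloom 5, 6 and 9, and for at most 0.302 in the other bloom libraries, which covers counting error only.

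**Figure D1:**
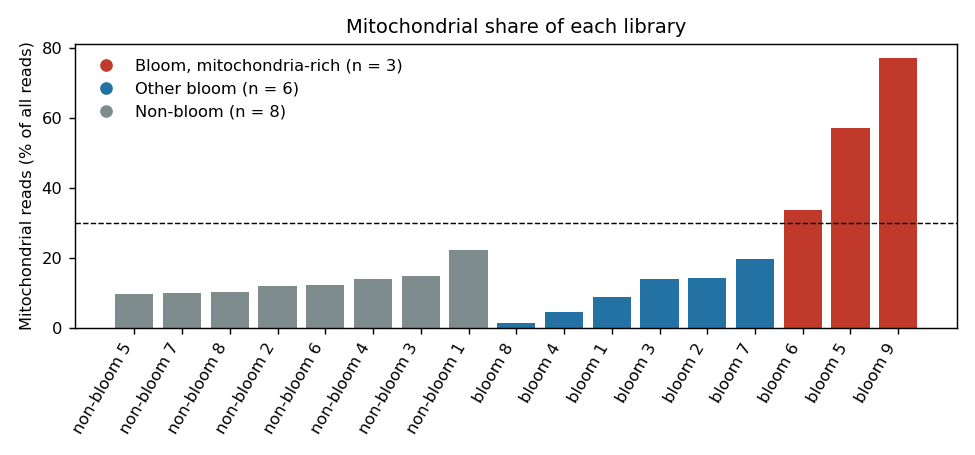
Mitochondrial reads as a percentage of all reads (vertical axis) in each of the 17 libraries (horizontal axis, ordered within each group); the dashed line is the 30% threshold. Bloom 6, 5 and 9 stand above it at 33.5%, 57.0% and 77.2%, and no non-bloom library exceeds 22.1%.

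The make-up of the mitochondrial reads overlapped between the 2 sets for the main genes. MT-CO1 (MT:5363-6913), the catalytic subunit of cytochrome c oxidase, took 54.0% ± 4.09 (SD, n = 3) of the mitochondrial reads in the rich libraries and 48.2% ± 9.24 (SD, n = 6) in the other bloom libraries. MT-CO3 (MT:8650-9434), of the same complex, took 15.1% ± 1.15 and 16.8% ± 3.12 in the same order. The complex I subunit MT-ND4 (MT:10211-11588) took 10.3% ± 0.659 and 10.3% ± 2.17, and MT-CYB (MT:14195-15334), of complex III, 6.04% ± 0.618 and 6.21% ± 1.06. For each of these 4 genes the ranges of the 2 sets overlapped. MT-ND1, MT-CO2, MT-ND5, MT-ATP6 and MT-ND4L had means of 4.04%, 5.35%, 1.11%, 0.991% and 0.63% in the rich libraries against 4.19%, 6.11%, 1.20%, 1.11% and 0.673%. MT-ND2, MT-ND3 and MT-ND6 stayed at or under 0.0289% of mitochondrial reads in each rich library. The ribosomal RNA at MT:73-1046 took 2.27% ± 0.584 in the rich libraries and 1.86% to 16.9% in the others, where bloom 8, the library with the fewest mitochondrial reads, had the highest value. These are shares of reads, not corrected for gene length.

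Among nuclear genes the 2 sets differed widely, and more genes were lower than higher. A gene is called higher or lower where all 3 rich libraries lay above, or below, all 6 others and the mean difference in log2(nuclear CPM + 1) was at least 1. Of 11501 genes with a mean of at least 5 nuclear CPM, 422 were higher (3.67%) and 2017 were lower (17.5%). The median log2 difference over all genes was -0.32 on this scaling and -0.08 with trimmed mean of M values (TMM) scaling, which gave 793 higher and 1243 lower. The share of higher among called genes therefore moved from 17.3% to 38.9%. The 422 higher genes were called in each of 5 scalings, and 1113 of the lower genes were. Each alternative scaling raised the rich libraries relative to the others, so it could remove lower calls but not higher ones. The 2 counts therefore do not show that the higher genes are firmer. Without bloom 9 the count of higher genes was 812, and without bloom 6 it was 641. Because the overall shift depends on the scaling, list medians are given relative to the median of all genes.

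The genes with the largest positive differences included genes of red blood cells and of astrocytes. HBA, an alpha chain of hemoglobin, stood at 972, 1121 and 2315 nuclear CPM in bloom 5, 6 and 9, and at 13.9 to 443 (median 94.4) in the other bloom libraries, a log2 difference of 3.93 (SE 0.86). HBB, a beta chain, stood at 66.8, 67.7 and 79.8 against 1.06 to 28.0 (log2 difference 3.36, SE 0.71), and ALAS2, which makes heme in red cells, at 33.4, 53.1 and 46.8 against 0.0883 to 25.8 (3.31, SE 0.80). No rich value overlapped with the other bloom libraries for these genes, but the non-bloom libraries reached 1119 for HBA, 67.9 for HBB and 61.1 for ALAS2, each at or above the lowest rich value. The part of blood in the other differences was not tested.

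NDRG2, an astrocyte-enriched gene, stood at 4993, 4774 and 3100 nuclear CPM against 246 to 2355 (log2 difference 2.31, SE 0.57). GDF1, a signal of the transforming growth factor beta family, stood at 1389, 1266 and 1971 against 140 to 497 (2.44, SE 0.36). EMX2, a cortical transcription factor that adult astrocytes also express, stood at 150, 118 and 105 against 5.83 to 93.6 (2.24, SE 0.66). The rich libraries also lay above all 8 non-bloom libraries for these genes. The other genes of largest positive difference were SREK1IP1, IFITM5, NDUFA3, TWISTNB, FAM101B and TSC22D4, with log2 differences from 2.13 to 2.56. SREK1IP1, NDUFA3 and TWISTNB were highest in bloom 9, at 135, 434 and 234 nuclear CPM, against at most 28.2, 89.8 and 59.6 in bloom 5 and 6.

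Genes of neurons and of synaptic transmission led the lower genes. SV2B, a synaptic vesicle glycoprotein, had the largest negative difference: 3.22, 4.61 and 30.2 nuclear CPM in bloom 5, 6 and 9, and 90.1 to 260 (median 147) in the other bloom libraries, a log2 difference of -4.08 (SE 0.59). GABRA3, a subunit of the inhibitory GABA-A receptor, stood at 3.47, 7.29 and 12.0 against 45.9 to 154. SLC12A5, the neuronal chloride exporter that makes GABA inhibitory, stood at 19.1, 31.0 and 54.2 against 263 to 571 (log2 difference -3.49, SE 0.34). Bloom 9 was the least low of the rich libraries in each of these 3 genes, and none overlapped with the other bloom or the non-bloom libraries. GPR158, GDA, SYT4, ATRNL1, RET, KCND2 and GABBR2 were also among the leading lower genes, with log2 differences from -3.85 to -3.40.

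By list, each of the 8 neuronal and synaptic groups had lower members and none higher, beside 17.5% lower and 3.67% higher of all genes. Of 25 measured voltage-gated channel genes 20 were lower, and the list median lay -1.70 from that of all genes. KCNC1 and KCNQ5, potassium channels that shape firing, had log2 differences of -3.05 (SE 0.42) and -2.91 (SE 0.36). Of 19 glutamate receptor genes 14 were lower (relative median -1.48), among them GRM5 and GRIA4, and of 13 GABA receptor genes 10 were (-1.47). Of 24 genes of synaptic vesicle release 12 were lower (-1.48). NSF, the ATPase that takes apart fusion complexes, stood at 40.6, 62.9 and 138 nuclear CPM against 391 to 840, and SYP, a vesicle membrane protein, at 48.3, 78.6 and 101 against 342 to 740. Of 20 postsynaptic density genes 11 were lower (-1.02), with SHANK2 at a log2 difference of -2.90 (SE 0.28) and DLGAP1 at -2.80 (SE 0.39). With TMM scaling the lower counts were 13 for channels, 8 for glutamate receptors and 6 for the postsynaptic density, beside 10.8% of all genes. The relative medians were then -1.71, -1.48 and -1.01. Without bloom 9 the vesicle release count was 20, beside 16.9% lower of all genes. With the threshold at a share of 50%, which puts bloom 6 with the others, the counts were 5 for channels, 5 for glutamate receptors and 1 for vesicle release, beside 14.1% lower of all genes.

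SYT1, the calcium sensor of transmitter release, stood at 115, 80.2 and 262 nuclear CPM in bloom 5, 6 and 9 and at 447 to 1116 (median 714) in the other bloom libraries, with non-bloom at 885 to 1467. Its log2 difference was -2.35 (SE 0.37). SNAP25, of the fusion complex, stood at 906, 1584 and 2208 against 2614 to 4151 (-1.26, SE 0.27). With TMM scaling its difference was -0.999 and the libraries overlapped, and without bloom 5 the difference was -0.91. Of 10 pan-neuronal markers 5 were lower (relative median -1.16), 3 with TMM scaling and 8 without bloom 9. The shares of all genes were 17.5%, 10.8% and 16.9% in the same order. MAP2, a dendritic microtubule protein, was not called: bloom 9, at 584, overlapped the lowest other bloom library, at 567, while bloom 5 and 6 stood at 143 and 89.4.

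Markers of both main classes of cortical neuron had lower members. Of 12 excitatory neuron markers 9 were lower (relative median -1.08), and SLC17A7, the vesicular glutamate transporter of cortical pyramidal cells, stood at 101, 156 and 194 nuclear CPM against 466 to 1662 (log2 difference -2.54, SE 0.35). Of 12 measured interneuron markers 6 were lower (-1.51), 3 with TMM scaling and 9 without bloom 9. With TMM scaling the excitatory count was 6. Of all genes 17.5% were lower, 10.8% with TMM scaling and 16.9% without bloom 9. GAD1, which makes GABA, stood at 6.68, 2.38 and 15.4 against 19.5 to 128 (-2.97, SE 0.58). GAD2, the second GABA-making enzyme, stood at 3.47, 1.64 and 7.41 against 4.32 to 40.3 and overlapped. SLC32A1, the vesicular GABA transporter, stood at 2.97, 2.08 and 1.71 against 15.2 to 35.9. GAD1 was not called in every scaling. In bulk tissue, fewer neurons and less RNA per neuron cannot be told apart.

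**Figure D2:**
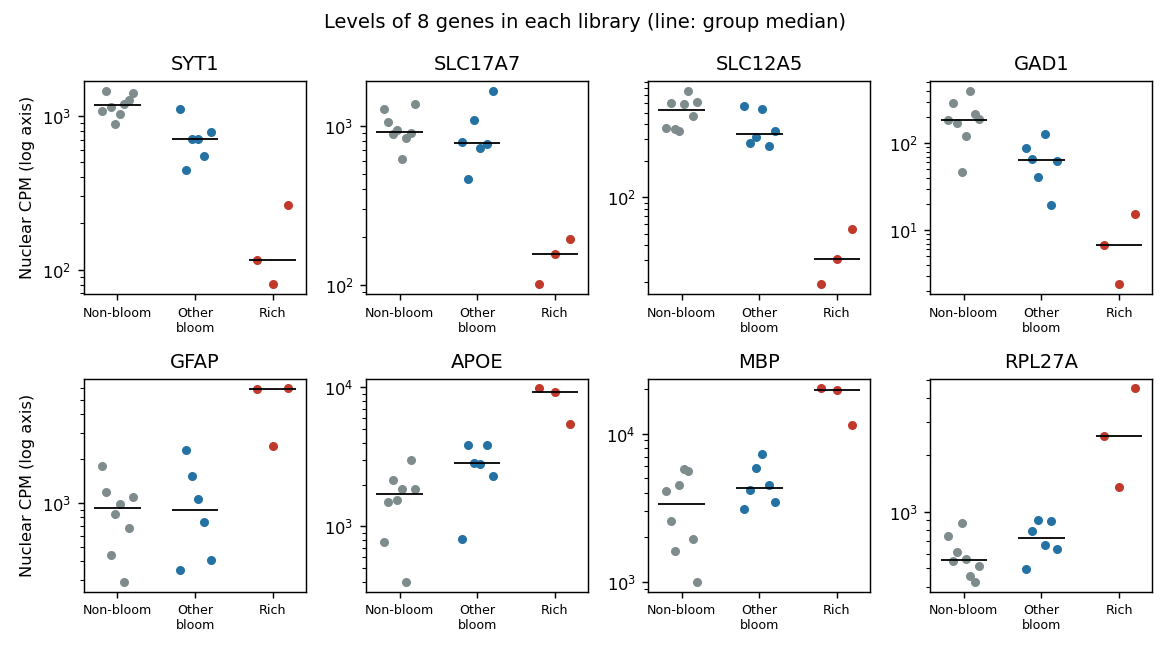
Nuclear CPM (vertical axis, log scale) of 8 genes in each library; points are libraries, and lines are group medians, for non-bloom (n = 8), other bloom (n = 6) and mitochondria-rich bloom ("Rich", n = 3). The neuronal genes SYT1, SLC17A7, SLC12A5 and GAD1 are lower in the rich libraries, and GFAP, APOE, MBP and RPL27A are higher.

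Astrocyte genes leaned the other way. GFAP, the intermediate filament of astrocytes, stood at 5991, 2419 and 6008 nuclear CPM in bloom 5, 6 and 9, and at 349 to 2300 (median 899.6) in the other bloom libraries, a log2 difference of 2.37 (SE 0.58). APOE, a lipid carrier that astrocytes secrete, stood at 9833, 9283 and 5486 against 816 to 3872 (1.68, SE 0.45), and ALDH1L1, a folate enzyme used as an astrocyte marker, at 269, 267 and 151 against 19.3 to 122 (1.94, SE 0.49). These 3 of 12 markers were higher (25%, beside 3.67% of all genes) and none was lower, and the list median lay 1.38 above that of all genes. The 3 also exceeded every non-bloom library. AQP4, the water channel of astrocyte end-feet, was not among them, at 121, 130 and 44.5 against 15.3 to 298. Bloom 9 leaned less than bloom 5 and 6 here: its median astrocyte difference, not set relative to all genes, was -0.05, against 1.17 and 2.06. The medians over all genes were -0.58 in bloom 9, and -0.22 and -0.17 in bloom 5 and 6. In all 3 the astrocyte median thus lay above that of all genes. Without bloom 9 the count of higher markers was 6, beside 7.03% higher of all genes.

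Oligodendrocyte genes split. MBP, a major protein of compact myelin, stood at 20143, 19552 and 11351 nuclear CPM against 3076 to 7320 (log2 difference 1.87, SE 0.31), above every non-bloom library. UGT8, which makes a myelin lipid, stood at 27.0, 112 and 47.9 against 150 to 246 (-1.90, SE 0.36). These made 1 higher and 1 lower of 13 markers (7.69% each), with a relative list median of -0.49. Of all genes 3.67% were higher and 17.5% lower. Without bloom 6, 7 were lower, beside 23.1% of all genes. CLDN11, of myelin tight junctions, stood at 10.6, 70.5 and 12.0 against 58.8 to 114, with bloom 6 within the other bloom range. No precursor marker of 5 was called.

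Microglial markers were mostly too low to measure: 2 of 11 in the files passed the filter, and neither was called. Of these 2, 1 lay above all 6 other bloom libraries, with a log2 difference of 0.52. CX3CR1, a receptor that marks microglia, was under the filter, at 0 in all 3 rich libraries and at most 1.02 in the other bloom libraries. In bloom 9 a count of 0 allows a level of up to 1.71 nuclear CPM, so these values do not order the sets. None of the 10 neutrophil markers passed the filter.

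Most cytosolic ribosomal protein genes were higher, beside 3.67% of all genes. Of 66 measured, 50 were higher, none was lower and 62 lay above all 6 other bloom libraries, and the list median was 1.54 above that of all genes. RPL27A stood at 2511, 1344 and 4505 nuclear CPM in bloom 5, 6 and 9 against 497 to 900.0 (median 729), a log2 difference of 1.79 (SE 0.34). RPS15A and RPS18, of the small subunit, had log2 differences of 1.96 (SE 0.34) and 1.64 (SE 0.29). Each was highest in bloom 9 and lowest of the 3 in bloom 6. The summed level of the list ran from 50699 to 104958 nuclear CPM in the rich libraries, from 24199 to 36497 in the other bloom libraries and from 20689 to 36386 in non-bloom. Without bloom 9 the count was 35, beside 7.03% higher of all genes. Of 36 translation factors 7 were higher (19.4%) and 2 lower (5.56%, under the 17.5% of all genes). EIF5B, which joins the ribosomal subunits, stood at 737, 462 and 2062 against 200 to 301.

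**Figure D3:**
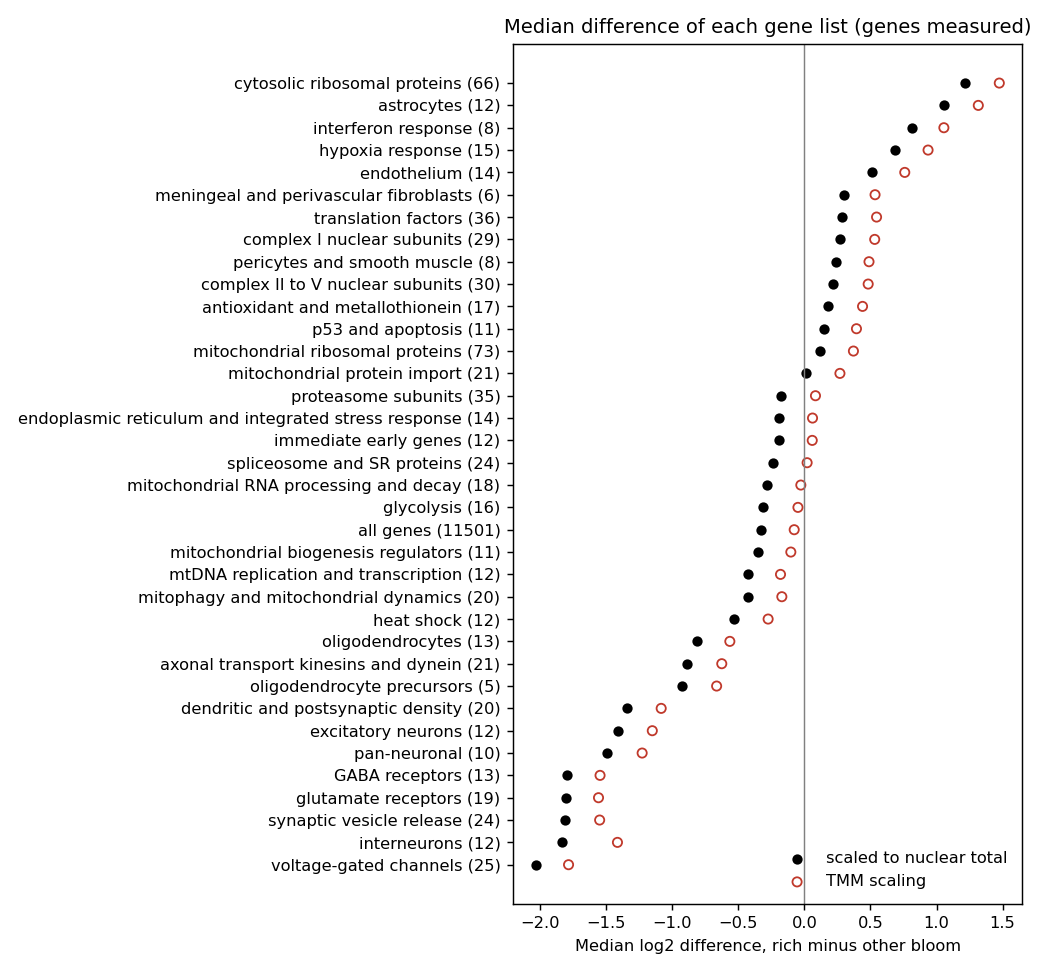
Median log2 difference, rich minus other bloom (horizontal axis), for each list with at least 5 measured genes (number in parentheses) and for all genes; filled points are scaled to nuclear reads and open points by TMM. Cytosolic ribosomal proteins lie at 1.21 and voltage-gated channels at -2.03, while all genes lie at -0.32.

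Nuclear genes for mitochondria differed less than those for cytosolic ribosomal proteins. Of 29 nuclear complex I genes 6 were higher (20.7%) and none lower, beside 3.67% higher and 17.5% lower of all genes. The list median lay 0.59 above that of all genes. NDUFA3, an accessory subunit, had the largest difference, at 2.31 (SE 0.52), and NDUFA1 stood at 51.5, 29.6 and 61.0 nuclear CPM against 13.9 to 23.5. NDUFS6 and NDUFB11 were also called, but without bloom 9 their differences were 0.80 and 0.70. In that setting 3 complex I genes were called, beside 7.03% higher of all genes. Of 30 genes for complexes II to V, 7 were higher with TMM scaling, beside 6.90% of all genes. On nuclear scaling ATP5I and COX5B were higher (6.67%) and none was lower. Without bloom 9 their differences were 0.84 and 0.48, and COX5B also fell short of 1 without bloom 1, 2 or 8 (0.96 to 0.98). Of 73 mitochondrial ribosomal protein genes 3 were higher, MRPS15, MRPL52 and MRPL40, a share of 4.11% that was near the 3.67% of all genes, and the list median lay 0.44 above that of all genes. With TMM scaling 8 were higher, beside 6.90% of all genes, and none was without bloom 9. MRPL52 without bloom 1 (0.97) and MRPL40 without bloom 8 (0.998) also fell short of 1.

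The machinery that copies and transcribes the mitochondrial genome had no called member among 12. TFAM, which packages and activates that genome, stood at 14.1, 11.9 and 12.0 nuclear CPM in bloom 5, 6 and 9 against 14.9 to 26.7, a log2 difference of -0.64 (SE 0.23). The rich libraries lay below the others, but the difference was short of 1. Among 18 genes of mitochondrial RNA processing, SLIRP, which stabilises mitochondrial messenger RNA, was higher at 97.3, 50.4 and 163 against 28.3 to 43.2 (1.42, SE 0.31). Its partner LRPPRC stood at 131, 165 and 152 against 147 to 202 and overlapped. HSD17B10, a subunit of the enzyme that trims mitochondrial transfer RNA at its leading end, was higher (1.20, SE 0.28). With the threshold at a share of 50% it overlapped, at 0.92. ELAC2, which trims the trailing end, was lower (-1.14, SE 0.26), though at -0.81 without bloom 9 and -0.88 with TMM scaling.

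The shares of lower genes among regulators of mitochondrial number (2 of 11) and among mitophagy and dynamics genes (4 of 20) were near the 17.5% of all genes. NRF1, a transcription factor for respiratory chain genes, stood at 10.4, 14.6 and 10.3 nuclear CPM against 23.7 to 36.8 (log2 difference -1.29, SE 0.20). With upper-quartile and relative log expression scaling its difference was -0.998 and -0.995, short of 1. It and PPRC1, a related coactivator (-1.09, but -0.66 without bloom 9 and -0.85 with TMM scaling), made 2 of 11 lower, with a relative list median of -0.03, and PPARGC1A, the best known coactivator, overlapped at 10.4, 20.2 and 7.41 against 13.3 to 46.6. Of 20 genes of mitophagy and dynamics 4 were lower and none higher, with a relative median of -0.10. With TMM scaling 2 were higher and 2 lower, beside 6.90% higher and 10.8% lower of all genes. RHOT1, which couples mitochondria to motor proteins, stood at 23.8, 43.0 and 9.12 against 68.0 to 116 (-1.92, SE 0.38), and DNM1L, which divides mitochondria, at 56.2, 62.4 and 48.5 against 110 to 208 (-1.38, SE 0.22). TRAK1 and USP30 were the others, at -1.06 and -1.01. TRAK1 fell short without bloom 1 (-0.99) or 5 (-0.93), USP30 without bloom 2 (-0.97), 5 (-0.97) or 9 (-0.92), and both with TMM scaling (-0.80 and -0.76). PINK1, the kinase that starts mitophagy, stood at 1098, 706 and 732 against 382 to 613, a difference of 0.74 (SE 0.21). TOMM20 and TIMM22, of the import pores, were lower (-1.55 and -1.52) among 21 import genes, a share of 9.52% that was under that of all genes. The import list median lay 0.33 above that of all genes, and with TMM scaling 1 member was higher and 2 lower.

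Proteins that carry cargo along axons and proteins that fold others also had called members, to be read beside 17.5% lower and 3.67% higher of all genes. The lower share was 38.1% for axonal transport, 25% for heat shock and 5.88% for antioxidant and metal-binding genes. With TMM scaling 10.8% of all genes were lower. Of 21 axonal transport genes 8 were lower, 5 with TMM scaling, including the dynein subunit DYNC1I1 at 41.8, 58.3 and 71.8 nuclear CPM against 194 to 411 (log2 difference -2.44, SE 0.25) and the kinesin KIF3C (-2.01, SE 0.23). MAP1B, an axonal microtubule protein, was the 1 higher member, at 2465, 2179 and 13241 against 770 to 1936; without bloom 9 its difference was 0.98. Of 12 heat shock genes 3 were lower, HSPA4L, HSPH1 and HSPA8, at -2.23, -1.74 and -1.14; HSPA8 was at -0.87 with TMM scaling and -0.97 without bloom 9. CRYAB, a small chaperone of glia, was higher (1.13, SE 0.31), and fell short without bloom 6 (0.81) or 8 (0.997). Of 17 antioxidant and metal-binding genes, MT3, the brain metallothionein, stood at 2469, 2242 and 2777 against 416 to 1196 (1.83, SE 0.31). FTL, a ferritin chain, was also higher (1.29, SE 0.27), and GCLC, which limits glutathione synthesis, was lower (-1.17; -0.91 without bloom 9, -0.92 with TMM scaling).

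Endothelial and hypoxia genes divided the rich libraries. FLT1, a receptor for vascular growth factor, stood at 937, 981 and 9.69 nuclear CPM in bloom 5, 6 and 9, and at 33.9 to 367 in the other bloom libraries. CLDN5, the tight junction protein of brain vessels, stood at 285, 240 and 8.55 against 25.7 to 174, and SLC2A1, their glucose transporter, at 461, 563 and 12.5 against 58.9 to 312. In each of these 3, bloom 5 and 6 lay above and bloom 9 below all the other bloom libraries. That order held in 9 of 14 endothelial genes and 5 of 15 hypoxia response genes, and in 383 of all 11501. The median difference from the other bloom libraries over the endothelial list was 1.90 in bloom 5, 1.46 in bloom 6 and -2.24 in bloom 9. Over all genes it was -0.22, -0.17 and -0.58 in the same order. CDH5, the adhesion protein of endothelium, had no read in bloom 9, which allows a level of up to 1.71 nuclear CPM, and stood at 97.0 and 64.6 in bloom 5 and 6.

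In the hypoxia list the same medians were 1.01, 1.67 and -1.22, beside -0.22, -0.17 and -0.58 over all genes. ANGPTL4, a secreted lipase inhibitor, stood at 48.8, 198 and 1.71 against 2.41 to 24.8, and VEGFA, the vascular growth factor, at 92.8, 353 and 7.98 against 12.2 to 91.0. LDHA, which turns pyruvate to lactate, stood at 866, 1084 and 88.9 against 255 to 384. NDRG1 was the 1 hypoxia gene called, at 309, 422 and 312 against 116 to 196, and fell short without bloom 6 (0.93) or 8 (0.97). Without bloom 9, 10 of 14 endothelial and 9 of 14 hypoxia genes that passed the filter were called higher, beside 7.03% of all genes. These genes were picked for print after their values were seen. Across the 11501 genes, differences from the mean of the other bloom libraries had a Pearson correlation of 0.84 between bloom 5 and 6, 0.51 between bloom 5 and 9 and 0.34 between bloom 6 and 9; the 3 share that mean, and genes are not independent.

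**Figure D4:**
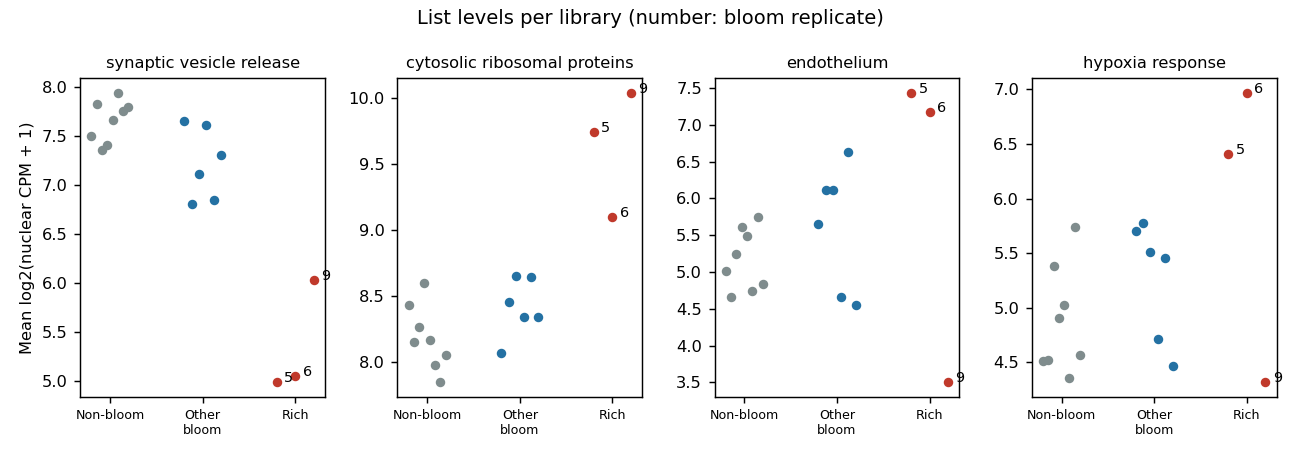
Mean log2(nuclear CPM + 1) of 4 gene lists (vertical axis) in each library, with the rich libraries numbered by bloom replicate. For synaptic vesicle release and cytosolic ribosomal proteins bloom 5, 6 and 9 lie on 1 side of the other bloom libraries, while for endothelium and hypoxia response bloom 9 lies below them and bloom 5 and 6 above.

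Differences also ran with the length of the gene on the scaffold. With genes ordered by genomic span and cut into 5 bins of equal size, the shortest bin (60 to 5158 bases) had a median log2 difference of -0.01, with 219 of 2301 genes higher and 266 lower. In the longest bin (68833 to 1715724 bases) it was -0.59, with 33 of 2300 higher and 639 lower. The bins between had medians of -0.19, -0.35 and -0.47. With TMM scaling the medians ran from 0.24 to -0.35. The shortest bin and the next one, at 0.06 with TMM scaling, change sign, but the order of the bins does not. Leaving out ribosomal protein genes, the shortest bin had a median of -0.04. Measured from the mean of the 9 bloom libraries, the shortest bin exceeded the longest by 0.35, 0.18 and 0.57 in bloom 5, 6 and 9, against -0.51 to 0.08 in the other bloom libraries. The part of gene length, or of RNA state, in the list differences was not tested.

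**Figure D5:**
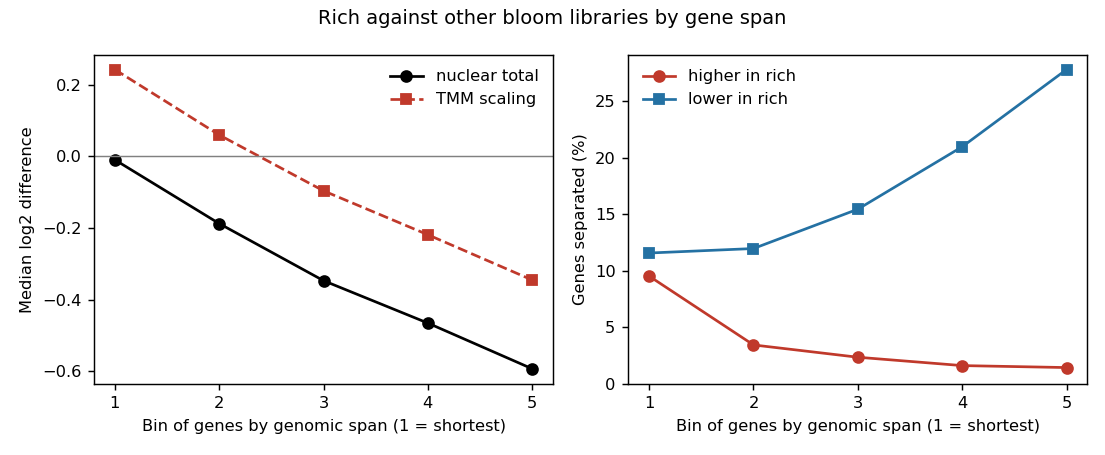
Median log2 difference, rich minus other bloom (left), and the percentage of genes called higher or lower (right), by bin of genomic span, from shortest (1) to longest (5). The median goes from -0.01 to -0.59 on nuclear scaling, and the percentage lower from 11.6% to 27.8%.

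The 8 non-bloom libraries, which took no part in choosing the groups, allowed a test of whether genes follow the mitochondrial share where it varies less. Their slopes on the log2 ratio of mitochondrial to nuclear reads were tested with limma. None of 11308 genes passed at a Benjamini-Hochberg adjusted p under 0.05 (0.0%), and the smallest adjusted p was 0.0811. At an unadjusted p under 0.05 there were 2112 genes (18.7%), and edgeR's quasi-likelihood test also passed none, with 2150 at an unadjusted p under 0.05. Over the alternatives in these 8 libraries the smallest adjusted p lay between 0.0622 and 0.237. With 8 libraries, the lack of a passing gene does not show that no gene follows the ratio.

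The lowest adjusted p, 0.0811, was shared by BICD2, ZMAT3, GFOD1, TNKS and MFAP3L, all with negative slopes, from -1.30 to -0.96 per unit of the log2 ratio. GFOD1 stood at 19.2 nuclear CPM in non-bloom 1, the library of highest mitochondrial share, and at 26.5 to 62.5 in the other non-bloom libraries, and it was lower in the rich bloom libraries too (log2 difference -1.38). TBCA, STMN1, SCG5, RNASEK and CCK had the positive slopes of smallest p, from 0.55 to 1.21 (adjusted p 0.113 to 0.117, limma). SCG5, a neuroendocrine chaperone, was nevertheless lower in the rich bloom libraries (-1.34).

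Of the genes higher in the rich bloom libraries, 65.5% of the 380 tested had a positive slope in non-bloom, against 42.5% of all genes. Of the 2016 lower genes tested, 68.9% had a negative slope, against 57.5% of all. Cytosolic ribosomal protein genes had positive slopes in 64 of 65, with a median of 0.37, and nuclear complex I genes in 28 of 29, with a median of 0.41, beside -0.07 over all genes. Lists with no higher member in the rich bloom libraries could show the same. Slopes were positive in 31 of 34 proteasome, 14 of 15 glycolysis and 20 of 21 import genes. The biogenesis regulators, also without a higher member, had 0 of 14. Astrocyte markers had negative slopes in 11 of 12 (median -0.82), whereas they leaned higher in the rich bloom libraries. Pan-neuronal markers had a median slope of 0.16 and voltage-gated channels one of -0.37. Whether these slopes differ from the bloom differences was not tested. Non-bloom 1 had a log2 ratio of -1.82 and the other non-bloom libraries -3.22 to -2.54, so 1 library set much of the spread. Without it, 786 positive and 928 negative slopes had an unadjusted p under 0.05 (limma), against 721 and 1391 with it. List slopes without it are not given here, and genes of a list are not independent.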

How the data were processed

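Per the submitters' processing notes, reads were trimmed with Trim Galore 0.6.1 and aligned with STAR 2.5.2a; which tool counted them and on which build: not given in the sources used here. Per the labels, libraries were made from 600 ng RNA of about 100 mg cortex with 14 cycles of PCR. The files hold a normalised signal for every gene, as deposited. Values above 0 came out as whole numbers of reads once divided by the worth of 1 read (100% within 0.01), so reads were recovered. The 36 mitochondrial rows were removed, and reads were rescaled to 1000000 nuclear reads per library. Log2(nuclear CPM + 1) was fitted with limma 3.58.1 for differences, SE and slopes; edgeR 4.0.16 was an alternative. The filter was a mean of 5. Gene names are those of the files.

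The text names 12 higher and 12 lower genes of largest difference at a mean of at least 20, up to 4 called members of each list, the 5 positive and 5 negative slopes of smallest p, mitochondrial genes and a short list of markers. Other list members printed were chosen after their values were seen. AIF1 was under the filter. A few genes that the rule names are not reported here; they stay in the fits, counts and lists. Groups, lists and rules were chosen with earlier results of these data known. The procedure was tested on simulated data. Other scalings, pseudocounts, filters, thinning, a higher threshold and leaving out libraries were tried.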

Additional observations from a re-analysis of the deposited data

Results flagged for a closer look

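Within a season, a library was set aside for a closer look where its gap to the next library was large against the whole range (Dixon's test at 95%). For independent groups not chosen by their values, chance gives about 1 such library in 20 groups. The share here was 6.38% of the 282 groups checked. That chance rate cannot be set against this share. Many genes were named for their differences in these same libraries, and genes and lists overlap.

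Bloom 9 was the library in each of the bloom cases. Its mean log2 level was 3.60 for mitochondrial biogenesis regulators (next 4.31), 6.30 for mitophagy and dynamics (next 6.78) and 8.49 for glycolysis (next 9.33). It was highest for COX5B at 1743 nuclear CPM, MAP1B at 13241, MRPL40 at 178, MRPS15 at 834, NDUFB11 at 146 and NDUFS6 at 285, and lowest for CDH5 at 0. Each gene in which bloom 9 was highest here had been called higher with it and lost that call without it. Its place in those genes is thus partly built into how they were named. Bloom 9 was also the shallowest library in nuclear reads, and the part of depth in these values was not tested.

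Among non-bloom libraries, non-bloom 1 had the highest mitochondrial share, 22.1% (next 14.7%), the lowest mean log2 level of biogenesis regulators, 4.17 (next 4.46), and the highest SCG5, at 490 nuclear CPM (next 348). Non-bloom 3 was lowest for the axonal transport list at 8.98 (next 9.32), for MAP1B at 929 and for SHANK2 at 46.9, and highest for RHOT1 at 134. Non-bloom 7 was lowest for HSD17B10, at 11.2.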

How the results depend on the processing

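The number of called genes depended on the scaling and on single libraries. Higher and lower counts, 422 and 2017 as reported, were 793 and 1243 with TMM, 864 and 1142 with upper-quartile, 892 and 1116 with relative log expression scaling, and 883 and 1214 with edgeR's estimate. Leaving out 1 bloom library gave 381 to 812 higher and 1877 to 2657 lower. The slope test passed 0 genes in each setting of the 8 non-bloom libraries, and 1 with 14 libraries and season as a term, whose adjusted p was 0.00476 (limma). Of 103 called named genes, none changed sign in any alternative, and 29 kept the call in all. With the threshold at a share of 50%, 55 lost it, among them SYT1, SLC17A7, SLC32A1, APOE, ALDH1L1 and MBP. Of all called genes, 5 changed sign after thinning to 1753799 reads and none in the others. Bloom 9, with the fewest nuclear reads, limits the precision of low levels. No paired analysis was possible because the labels tie no libraries to each other, and the library numbers used here only follow accession order.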
